A study of Komagataella phaffii with 15 samples.

Results

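PP7435_Chr1-2104 and PP7435_Chr4-0629 are unnamed members of the flocculin (*FLO*) gene family of the yeast *Komagataella phaffii* CBS7435. They were picked by identifier because their transcripts kept a high or a middle level in every sample, so the levels and contrasts given here chose them and are a description with no test. They are 2 of 13 *FLO* family genes and 2 of 5341 transcripts in the deposited tables. RNA-Seq covered 15 libraries from glucose-limited chemostats, in 5 groups of 3 biological replicates. The wild-type strain was sampled at S1 (growth rate 0.1 per hour), at S3 after a switch to 0.05 per hour, and at S5 after the switch back to 0.1 per hour. The *flo8Δ* strain, in which part of the *FLO8* promoter and the start of the reading frame were deleted, was sampled at S1 (0.1 per hour) and S3 (0.05 per hour). All groups share the CBS7435 background, the glucose limitation and the order of dilution rates, and samples of 1 strain can come from the same chemostats.

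Flocculins are cell wall proteins by which yeast cells stick to each other, to sugars and to surfaces. A signal peptide sends such a protein into the secretory pathway, a glycosylphosphatidylinositol (GPI) anchor ties it to the membrane and then the wall, and repeats rich in threonine and serine often lie between. In *Saccharomyces cerevisiae* several of these genes, *FLO11* among them, are under the control of the transcription factor Flo8, and Flo11 is needed for pseudohyphal growth. The proteins of PP7435_Chr1-2104 and PP7435_Chr4-0629 are both predicted to have a signal peptide and a GPI anchor. The first has a repeat of the flocculin_t3 kind and the second a Herpes_BLLF1 domain, and neither gene lies next to a telomere. What either protein does in *K. phaffii* is not given in the sources used here.

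PP7435_Chr1-2104 has a coding length of 609 bases, and 18.7% of the transcripts are shorter. PP7435_Chr4-0629 has a coding length of 1194 bases, near the median of 1170. The files give no coordinates. Of the identifiers whose numbers are 1 below and 1 above those of the pair, only PP7435_Chr4-0628 is listed in the tables, with 45.0 to 117 TPM (a transcript level scaled to length and library size).

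The numbers of reads behind the deposited normalized counts were recovered per library and came to between 4163342 and 10843287. The separate kallisto files hold estimated counts that came to 5.06% to 6.11% of those reads. *FLO8* (PP7435_Chr4-0252) had 25.1 to 39.2 TPM in the wild-type libraries and 24.1 to 34.8 TPM in the *flo8Δ* libraries. These overlapped, and since most of the annotated transcript remains in the deletion strain, this level checks no label. Nothing in the labels says more of the cultures than that the replicates are biological.

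PP7435_Chr1-2104 was among the most abundant transcripts of every library. It held ranks 22 to 67 of 5341 by TPM and lay at 1.51 to 2.93 times the level of *ACT1*, the actin gene, in all 15 libraries. In the wild-type strain its TPM were 2972, 2555 and 3299 at S1, 3703, 3329 and 2895 at S3, and 4486, 3123 and 3484 at S5. In the *flo8Δ* strain they were 3648, 4508 and 3777 at S1 and 4328, 3257 and 3342 at S3. The lowest value was that of a wild-type S1 library and the highest that of a *flo8Δ* S1 library, which had the fewest reads of all. The highest and the lowest library differed by 1.76-fold.

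From lowest to highest, the means of PP7435_Chr1-2104 were those of wild type S1 (2942 ± 373 TPM, SD, n = 3 for each group), wild type S3 (3309 ± 404), *flo8Δ* S3 (3642 ± 595), wild type S5 (3697 ± 706) and *flo8Δ* S1 (3978 ± 464). Each neighbouring pair in this order overlapped. The ends of the order did not, since all 3 *flo8Δ* S1 libraries lay above all 3 of wild type S1. Between 9868 and 30240 reads were behind these values, a counting error of 0.575% to 1.01%, so the spread between replicates was far wider than counting alone gives.

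PP7435_Chr4-0629 was a transcript of middle level. It held ranks 1508 to 2909 by TPM and lay at 0.0309 to 0.0603 of the *ACT1* level. Its TPM in the wild-type strain were 78.6, 77.3 and 67.7 at S1, 63.9, 72.6 and 84.7 at S3, and 62.9, 46.2 and 93.0 at S5. In the *flo8Δ* strain they were 93.2, 97.1 and 78.5 at S1 and 81.2, 83.8 and 93.8 at S3. The widest group was wild type S5, which held both the lowest library of all and a library above 3 of the 6 *flo8Δ* values. The highest and lowest library differed by 2.10-fold.

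The order of the means was wild type S5 (67.4 ± 23.7 TPM), wild type S3 (73.7 ± 10.4), wild type S1 (74.5 ± 5.92), *flo8Δ* S3 (86.3 ± 6.65) and *flo8Δ* S1 (89.6 ± 9.81). Wild type S1 and *flo8Δ* S3 were the only neighbours whose TPM did not overlap, and they overlapped on normalized counts scaled over the 15 libraries, on which wild type S1 and S3 also changed places. The reads behind PP7435_Chr4-0629 numbered 414 to 1334, a counting error of 2.74% to 4.91%. The lowest of these numbers was from wild type S1 replicate 3, the second shallowest library.

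**Figure D1:**
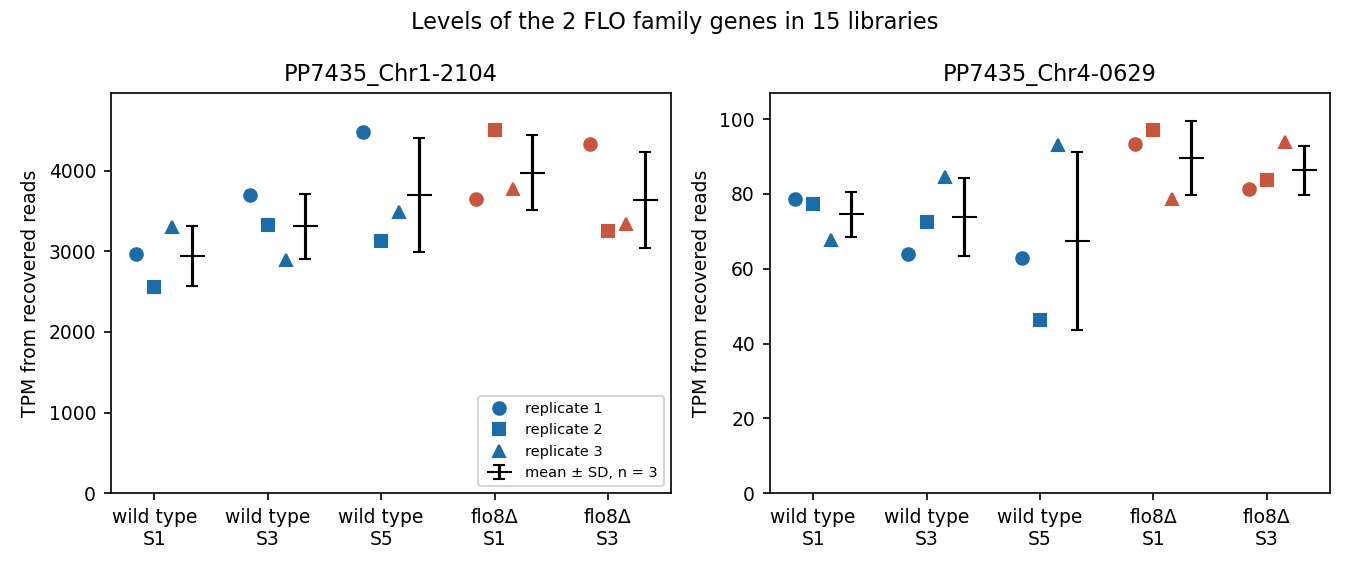
TPM of PP7435_Chr1-2104 (left) and PP7435_Chr4-0629 (right) in each library, by strain and sampling point, with both axes from 0. Each coloured point is 1 library, and the black bar is the mean with its SD (n = 3). PP7435_Chr1-2104 stays between 2555 and 4508 TPM and PP7435_Chr4-0629 between 46.2 and 97.1 TPM, with the widest spread of both in wild type S5.

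The pair were steady beside the *FLO* genes that differed most between groups, but not beside the transcriptome. For each of the 5209 genes with a mean of at least 10 TPM, the SD of the 5 group means of log2(TPM + 1) was taken as the spread between groups, and the median of the SDs within groups of 3 as the spread between replicates. The spread between groups was 0.167 for PP7435_Chr1-2104 and 0.186 for PP7435_Chr4-0629, against a median of 0.176 over all genes. Of the other genes, 45.9% had a smaller spread between groups than PP7435_Chr1-2104, and 54.2% a smaller one than PP7435_Chr4-0629. Both were thus near the middle of all genes by this measure over the 5 groups. The spread between replicates was 0.185 and 0.161, above that of 93.8% and 88.9% of the other genes, whose median was 0.102. The ratio of the spread between groups to that between replicates was 0.90 for PP7435_Chr1-2104 and 1.16 for PP7435_Chr4-0629, with a median of 1.74 over all genes. Single comparisons on normalized counts varied more. The share of genes with a smaller change than PP7435_Chr1-2104 ran from 20.2% (strains at S3) to 90.9% (wild type S5 against S1). It was 88.5% for the strains at S1. For PP7435_Chr4-0629 the share ran from 1.64% (wild type S3 against S1) to 77.0% (strains at S1).

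Among the 95 genes within 2-fold of the mean level of PP7435_Chr1-2104, the median spread between groups was 0.252, and 17.0% of the others were below it. Among the 2653 genes within 2-fold of the level of PP7435_Chr4-0629, 57.5% were below it. At a like level, PP7435_Chr1-2104 thus had a spread between groups below that of most genes, and PP7435_Chr4-0629 did not. Both genes were chosen for keeping their level over these groups, so these places describe the choice and test nothing. Both remained among the more variable genes between replicates in these subsets, with 86.2% and 92.6% of the genes below them.

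Within the family, 9 genes reached a mean of 10 TPM. The spread between groups was 2.41 for *FLO5-1*, which encodes a protein with a carbohydrate-binding PA14/GLEYA domain, 2.37 for *FLO11*, 1.94 for *FLO400*, 1.52 for *FLO300* and 1.16 for PP7435_Chr3-1237. Of these 9, only *FLO5-2*, with 0.232, and PP7435_Chr4-1013, with 0.175, were near the pair. The spread of the family genes below a mean of 10 TPM was not computed. PP7435_Chr4-1013 was thus steadier between groups than PP7435_Chr4-0629, at a mean of 15.1 TPM.

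**Figure D2:**
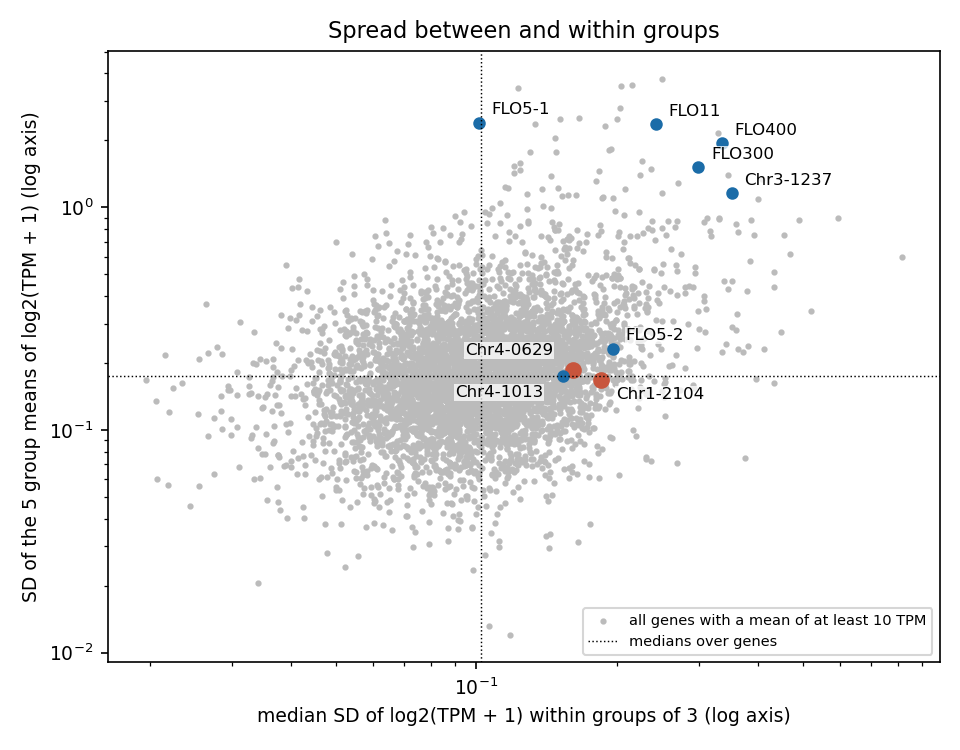
Spread between the 5 group means (vertical) against the median spread within groups (horizontal), both as SDs of log2(TPM + 1) on log axes, for the 5209 genes with a mean of at least 10 TPM. The 2 described genes (red) lie near the horizontal median line at 0.176 and right of the vertical one at 0.102, and 5 of the other *FLO* genes (blue) lie above 1 on the vertical axis.

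The strains were compared at S1, the fast growth rate before any switch, to see which transcripts depend on Flo8. The normalized counts of PP7435_Chr1-2104 were 15295, 14125 and 16223 in the wild-type strain and 19592, 25176 and 21383 in the *flo8Δ* strain. All *flo8Δ* libraries lay above all wild-type libraries. The log2 fold change, wild type over *flo8Δ*, was -0.53 (SE, the standard error, 0.11), a 1.44-fold higher level in the *flo8Δ* strain.

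PP7435_Chr4-0629 had 826, 873 and 681 normalized counts in the wild-type strain at S1 and 1023, 1108 and 908 in the *flo8Δ* strain. These groups did not overlap either, while the closest TPM did, at 78.6 and 78.5. The log2 fold change was -0.36 (SE 0.11), 1.28-fold higher in the *flo8Δ* strain. Wild-type values lay below all *flo8Δ* values without overlap in 23.3% of the 5306 genes tested, and 3.19% were called differentially regulated by limma (log2 fold change beyond 1 in either direction, adjusted p under 0.05). Neither of the pair was called here or in the other comparisons. They were chosen for keeping their level, so this tests nothing about them.

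At S1, 4 of the 10 other *FLO* genes tested were called, all higher in the wild-type strain (2.54% of all genes were called in that direction). *FLO5-1* was higher by 5.40 on the log2 scale (SE 0.09, limma's adjusted p = 9.6e-09) and *FLO400* by 3.24 (SE 0.18, adjusted p = 1.0e-05). *FLO11* was higher by 3.53 (SE 0.57, limma's adjusted p = 0.0028) and PP7435_Chr3-1237 by 3.38 (SE 0.22, adjusted p = 2.8e-05). The median of the 10 was 0.02, beside 0.00 for all genes. *BSC1*, whose protein shares a FLO11 domain with Flo11, was on the same side as the pair, with -0.49 (SE 0.09) and no overlap of the strains. *FLO200* (-0.38), *FLO300* (-0.33) and PP7435_Chr4-1013 (-0.22) were on that side as well, with overlap. *FLO5-2* (0.04) and PP7435_Chr2-0004 (0.01) lay close to 0 on the other side.

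At S3, the slow growth rate, PP7435_Chr1-2104 had 25606, 22496 and 19284 normalized counts in the wild-type strain and 28489, 21982 and 20633 in the *flo8Δ* strain. The strains overlapped, with a log2 fold change of -0.07 (SE 0.13). This value was 0.03 without wild type S3 replicate 3 and 0.07 without *flo8Δ* S3 replicate 1, so 1 library decides its sign, and it was -0.17 without wild type S3 replicate 1 or *flo8Δ* S3 replicate 3 and -0.12 without *flo8Δ* S3 replicate 2. For PP7435_Chr4-0629 the normalized counts were 903, 1003 and 1153 in the wild-type strain and 1093, 1156 and 1184 in the *flo8Δ* strain. These overlapped as well, and the log2 fold change was -0.17 (SE 0.08). It was -0.089 without wild type S3 replicate 1 and -0.27 without wild type S3 replicate 3. The strains did not overlap in 60.5% of the 5312 genes tested. Neither gene was called, and 4.22% of all genes were. At this sampling point 3 of the 10 other *FLO* genes tested were called, *FLO11*, *FLO400* and *FLO5-1*, all higher in the wild-type strain (3.8% of all genes in that direction). Their log2 fold changes were 7.59, 4.01 and 3.86, and the median of the 10 was 0.30. Without wild type S3 replicate 1, 5 of the 10 were called. *FLO11* had only 3.99 to 11.4 normalized counts, scaled over the 15 libraries, in *flo8Δ* S3, so the size of its value rests on counts near the floor. It passed the filter through the wild-type libraries. With 10 counts required in every library, 2 of 9 other *FLO* genes were called.

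The switch to slow growth was compared within each strain, each against its own S1. In the wild-type strain, PP7435_Chr1-2104 had 22462, 19776 and 16966 normalized counts at S3 and 17235, 15950 and 18132 at S1. The groups overlapped, with a log2 fold change of 0.20 (SE 0.12). It was 0.10 without S3 replicate 1 and 0.30 without S3 replicate 3. PP7435_Chr4-0629 had 792, 881 and 1014 at S3 and 931, 986 and 761 at S1, which spanned nearly the same range, and its log2 fold change was 0.01 (SE 0.12), with -0.10 to 0.092 when 1 library was left out. Of the 5310 genes tested, 50.2% did not overlap between S3 and S1 and 1.43% were called, and neither of the pair was in these. Of the 10 other *FLO* genes tested, *FLO11* (3.36) and *FLO300* (2.10) were called higher at S3 and *FLO5-1* (-1.66) and PP7435_Chr3-1237 (-1.45) lower, where the values are log2 fold changes. *FLO400* was also lower at S3 without overlap, with -0.92 (SE 0.19, limma's adjusted p = 0.0097), and missed a call only by the cut of 1. The median of the 10 was -0.38. The number of all genes called was 76, and it was 140 without S1 replicate 2 and 46 without S1 replicate 3.

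In the *flo8Δ* strain, PP7435_Chr1-2104 had 25339, 19715 and 18371 normalized counts at S3 and 22322, 28494 and 24198 at S1. The groups overlapped through *flo8Δ* S3 replicate 1, and the log2 fold change was -0.25 (SE 0.12). It was -0.39 without that library, -0.15 without S3 replicate 3 and -0.15 without S1 replicate 2. PP7435_Chr4-0629 had 972, 1037 and 1054 at S3 and 1166, 1255 and 1028 at S1, with an overlap through replicate 3 of S1 and a log2 fold change of -0.17 (SE 0.07), which was -0.10 without S1 replicate 2. Scaled to *ACT1*, both values were above 0 instead, at 0.07 and 0.15, and the median of all genes was then 0.31. Relative to that median, both genes still lay lower at S3. The libraries of S3 and S1 did not overlap in 45.5% of the 5307 genes tested. Neither of the pair was called, and 0.546% of all genes were. Of the 9 other *FLO* genes tested, *FLO300* (1.33) and PP7435_Chr3-1237 (1.20) were called higher at S3 and *FLO400* (-1.68) lower.

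The wild-type response to slow growth minus that of the *flo8Δ* strain was 0.46 on the log2 scale (SE 0.19) for PP7435_Chr1-2104 and 0.18 (SE 0.15) for PP7435_Chr4-0629. The latter was 0.077 without wild type S1 replicate 3, 0.091 without wild type S3 replicate 3 and 0.12 without *flo8Δ* S1 replicate 2. These values share their libraries with the contrasts above. In neither strain did the libraries of S3 and S1 separate for either gene.

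The return to fast growth was compared with both earlier sampling points, and the 2 comparisons share the S5 libraries. Against S1, PP7435_Chr1-2104 had 28484, 20513 and 20342 normalized counts at S5 and 16949, 15606 and 17907 at S1. The groups did not overlap on this scale, as in 15.6% of the 5311 genes with S5 as the higher group, while by TPM the lowest S5 library (3123) lay under the highest S1 library (3299). The log2 fold change was 0.44 (SE 0.17). Without S5 replicate 1, the highest library, it was 0.28. On the TPM scale it was 0.32, where the median of all genes was -0.12. PP7435_Chr4-0629 had 817, 621 and 1110 normalized counts at S5 and 915, 964 and 751 at S1, so that S5 reached both above and below S1. Its log2 fold change was -0.08 (SE 0.20), and it was 0.13 without S5 replicate 2 and -0.29 without S5 replicate 3. Leaving out S1 replicates 1, 2 or 3 gave -0.044, -0.0065 and -0.19.

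Neither gene was called in S5 against S1, where 0.395% of the genes were. This background of 21 genes depended on single libraries. It was 0 without S5 replicate 1 (866 genes at an unadjusted p under 0.05 from limma), 12 without S5 replicate 2, 34 without S5 replicate 3, 3 without S1 replicate 1 and 45 without S1 replicate 3. With all libraries, edgeR with TMM called 22 and DESeq2 27. Of the 11 other *FLO* genes, *FLO300* (4.03) was called higher at S5 and *FLO5-1* (-2.34) and *FLO400* (-1.61) lower. With the replicate number as a block, 6 of the 11 were called in place of 3, and neither of the pair. No call among them was left without S5 replicate 1 or without S1 replicate 1.

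Against S3, PP7435_Chr1-2104 had 30319, 21748 and 21599 normalized counts at S5 and 23820, 20937 and 17965 at S3. The log2 fold change was 0.22 (SE 0.17), with overlap. It was 0.061 without S5 replicate 1 and 0.12 without S3 replicate 3. PP7435_Chr4-0629 had 869, 658 and 1179 at S5 and 840, 933 and 1074 at S3, and a log2 fold change of -0.11 (SE 0.19). The S5 libraries again enclosed those of the earlier sampling point, and the value was 0.10 without S5 replicate 2 and -0.32 without S5 replicate 3. It was -0.19 without S3 replicate 1 and -0.014 without S3 replicate 3. S5 and S3 did not overlap in 52.7% of the 5311 genes. Neither of the pair was called, beside 2.39% of all genes. *FLO11* alone among the 11 other *FLO* genes was called, lower at S5, with a log2 value of -1.58 (SE 0.24, limma's adjusted p = 0.0016). In that direction 2.33% of all genes were called.

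The make-up of the family differed widely between samples. The summed TPM of the 13 genes averaged 8711 in wild type S1, 5988 in S3 and 5488 in S5, and 4526 and 3968 in *flo8Δ* S1 and S3. PP7435_Chr1-2104 made up 33.9 ± 1.63%, 55.4 ± 7.90% and 67.0 ± 5.42% of the sum in the wild-type strain, and 87.8 ± 2.18% and 91.7 ± 1.35% in the *flo8Δ* strain. It ranked 2 of 13, behind *FLO400*, in all wild-type S1 libraries and 1 in the other 12. *FLO400* and *FLO5-1* together held 64.0%, 40.7% and 26.6% in the wild-type strain and 8.67% and 4.13% in the *flo8Δ* strain. PP7435_Chr4-0629 held 0.875% to 2.21% of the sum by group. It ranked 4 in wild type S1 and S3, 5 or 6 in S5, and 3 in both *flo8Δ* samples. A share depends on every gene of the sum, and the sum itself differed between groups as given.

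**Figure D3:**
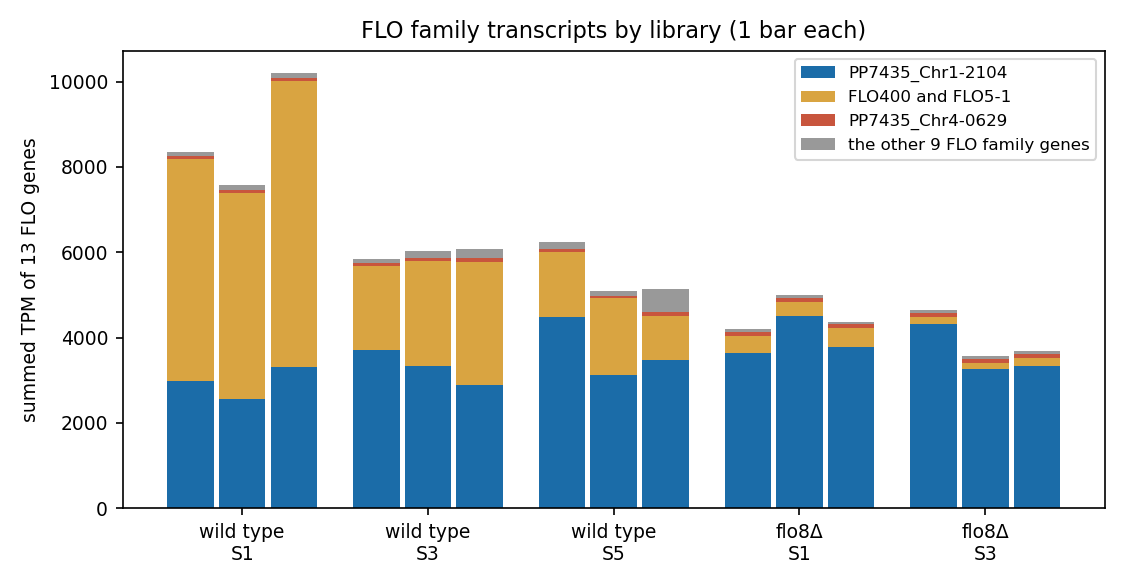
Summed TPM of the 13 *FLO* family genes, 1 bar for each library from 0, grouped by strain and sampling point and split by gene. The part of PP7435_Chr1-2104 (blue) stays between 2555 and 4508 TPM while the summed level averages 8711 in wild type S1 and 3968 in *flo8Δ* S3, and PP7435_Chr4-0629 (red) is a thin band.

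The kallisto files, which hold a small part of the reads, gave other levels for the pair. The TPM that the study reported for both genes match the group means from the recovered reads. They do not match the TPM of the kallisto files. The names of the kallisto files state a stranded setting, and their estimated counts are treated here as a part of the recovered reads, which was not tested read by read. The gene-wise share of estimated counts in the reads had a median of 2.82% over 5276 genes. PP7435_Chr1-2104 had 5 to 46 estimated counts, 0.0364% to 0.180% of its reads, and 0.739% of the genes had a lower mean share. PP7435_Chr4-0629 had 116 to 393 estimated counts, 19.1% to 42.0% of its reads, and 85.0% of the genes had a lower mean share. The pair thus lay on opposite sides of the transcriptome in this share. Wilson 95% intervals were 0.0156% to 0.0853% for the lowest share of PP7435_Chr1-2104 and 16.3% to 22.5% for the lowest-depth library of PP7435_Chr4-0629. Among the 11 family genes compared for this share, PP7435_Chr4-1013 (88.2% to 99.8%) and *FLO5-2* (80.3% to 97.5%) had the largest shares.

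The order of the pair was reversed between the kinds of file. By recovered reads PP7435_Chr1-2104 was 33.1- to 71.3-fold above PP7435_Chr4-0629 in TPM. By the TPM of the kallisto files PP7435_Chr4-0629 was 2.91- to 17.0-fold above PP7435_Chr1-2104, in all 15 libraries. In those files PP7435_Chr1-2104 had 37.4 to 156 TPM (ranks 1418 to 2893) and PP7435_Chr4-0629 had 283 to 637 TPM (ranks 359 to 853). Reads of a gene and of an overlapping or antisense transcript cannot be told apart where counting does not use strand, and which setting made the normalized counts is not given in the sources used here.

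**Figure D4:**
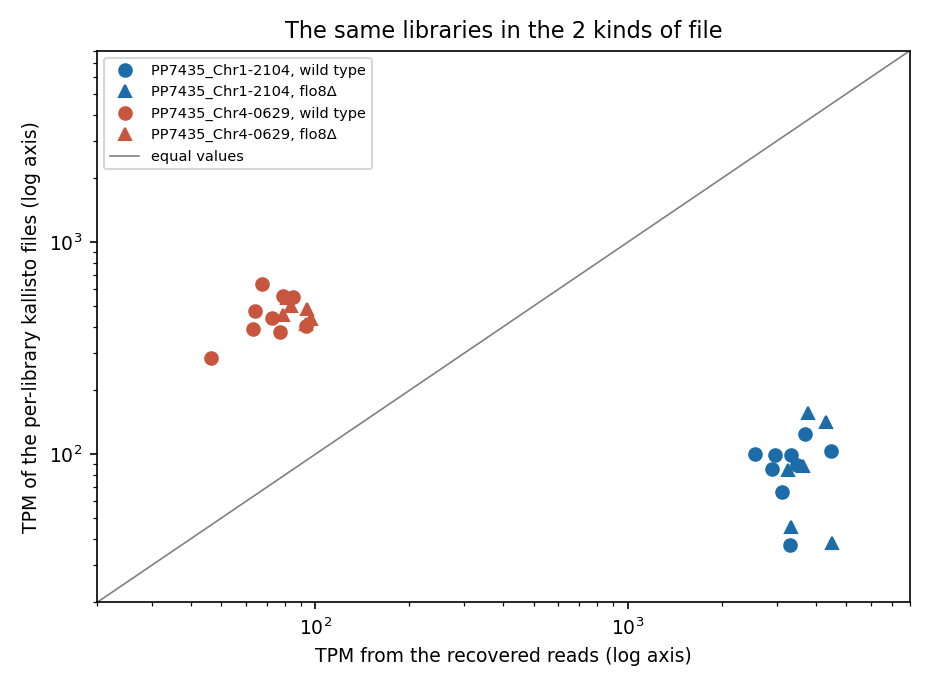
TPM of the kallisto files (vertical) against TPM from the recovered reads (horizontal), both on log axes, with 1 point for each gene and library; circles are wild-type and triangles *flo8Δ* libraries, and the line marks equal values. PP7435_Chr1-2104 (blue) lies below the line in all 15 libraries and PP7435_Chr4-0629 (red) above it.

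The share of estimated counts of PP7435_Chr4-0629 also differed between libraries, within groups as well as between them. In the 3 libraries of each group it was 33.3%, 22.4% and 42.0% in wild type S1, 37.0%, 30.5% and 32.8% in S3 and 27.6%, 25.9% and 21.1% in S5. The range of wild type S1 enclosed that of wild type S3. In the *flo8Δ* strain it was 19.1%, 19.2% and 23.4% at S1 and 30.5%, 27.5% and 24.4% at S3. The lowest shares were those of *flo8Δ* S1 replicates 1 and 2 and the highest that of wild type S1 replicate 3. *flo8Δ* S1 overlapped with wild type S1 and S5. At S1 the log2 fold change of PP7435_Chr4-0629, wild type over *flo8Δ*, was 0.26 (SE 0.16) from the estimated counts alone. It was -0.54 (SE 0.18) from the reads less the estimated counts, both by edgeR, beside -0.36 from all reads. The values for this gene had opposite signs in the 2 fractions of reads, with wide SEs. At S3 the same values were 0.06 (SE 0.11) and -0.27 (SE 0.10), so the first lay within its SE of 0. In *flo8Δ* S3 against S1 they were 0.24 (SE 0.11) and -0.28 (SE 0.09). The signs were opposite in the wild-type comparisons too. The values were -0.44 (SE 0.19) and 0.09 (SE 0.26) in S5 against S1, and -0.45 (SE 0.13) and 0.10 (SE 0.22) in S5 against S3. In S3 against S1 they were 0.02 (SE 0.16) and -0.03 (SE 0.18), both within their SE of 0.

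For PP7435_Chr1-2104, nearly all reads remain when the estimated counts are taken off, and its log2 fold changes hardly moved. Between the strains at S1 the value was -0.23 (SE 0.39) from the estimated counts, with 5 to 46 counts a library. The part of the estimated counts in any of these differences was not tested beyond these values.

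**Figure D5:**
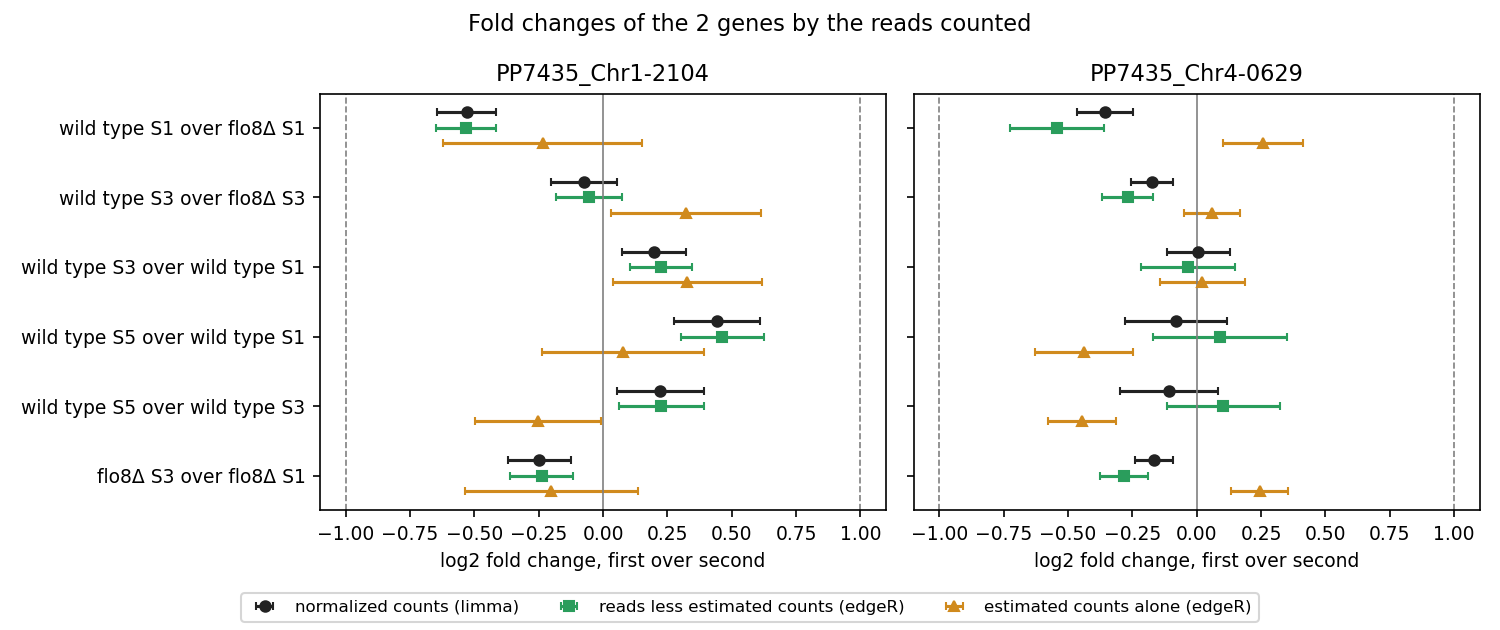
Log2 fold changes of PP7435_Chr1-2104 (left) and PP7435_Chr4-0629 (right) in the 6 comparisons, first sample over second, from normalized counts (limma), from reads less the estimated counts (edgeR) and from the estimated counts alone (edgeR). Bars are standard errors, for edgeR the fold change divided by the square root of its F statistic. All points lie within the dashed lines at -1 and 1. For PP7435_Chr4-0629 the estimated counts and the reads less these lie on opposite sides of 0 in all 6 comparisons, both near 0 in wild type S3 over S1.

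The genes whose pattern was most like each of the pair were found by Pearson's r of log2(TPM + 1) over the 15 libraries, which come in groups of 3 replicates and differ in depth within groups. For PP7435_Chr1-2104 they were PP7435_Chr1-0006 (r = 0.79), PP7435_Chr1-1106 (0.78), PP7435_Chr1-0008 (0.75), PP7435_Chr2-1210 (0.72) and PP7435_Chr1-1522 (0.71), and 8 genes had an r over 0.7. For PP7435_Chr4-0629 they were PP7435_Chr1-0149 (r = 0.88), PP7435_Chr4-0526 (0.86), PP7435_Chr2-0324 (0.85), PP7435_Chr2-0423 (0.85) and PP7435_Chr1-3314 (0.85), and 159 genes had an r over 0.7. Without the 2 libraries farthest from the median of PP7435_Chr4-0629, the r of PP7435_Chr1-0149 was 0.70. The r between the 2 described genes was 0.11. No names for these identifiers are given in the sources used here.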

How the data were processed

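RNA was taken from cells of 15 chemostat samples, and poly-A single reads were sequenced. The authors trimmed the reads with Trim Galore 0.4.2, ran kallisto 0.43.1 against the annotation of CBS7435, and normalized each comparison with DESeq2 1.14.1. The authors deposited 6 tables of normalized counts (a signal scaled within the table, 6 libraries each). The authors also deposited estimated counts and TPM from kallisto for each library, and the deposited TPM of 1 library (replicate 1 of wild type at S1) are a fraction that sums to 1 and were rescaled.

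Reads were recovered by dividing the normalized counts by each column's step and by the effective-length factor; 100% came out whole within 0.01, and a library agreed between tables. TPM were computed from those reads and the effective lengths. Log2(normalized count + 1) was fitted with limma 3.58.1 (R 4.3.3, trended prior) per table, keeping genes that reached 10 normalized counts in 3 or more of the 6 libraries, with Benjamini-Hochberg adjustment over all genes tested. Calls required an absolute log2 fold change above 1 and an adjusted p below 0.05. Alternatives were edgeR 4.0.16 and DESeq2 1.42.0 on the recovered reads, edgeR on the estimated counts (rounded) or on the reads less these, other filters and pseudocounts, TPM, scaling to *ACT1*, 1 fit of all libraries, the replicate block, and each library left out. On simulated counts for wild type S3 against S1 (5311 genes), limma called 200 of 200 genes changed by a log2 fold change of 2. That change is well beyond the cut of 1. It was set only in well-counted genes, with the same dispersion for all genes. This checks that the fits run correctly and cannot say how small or variable changes would be called.

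Of 10 pairs of groups, only wild type S1 and S5 had all 3 correlations of same-numbered libraries' deviations over 0.1 (0.129 to 0.189). This pairing comes from the correlations alone, since no source says that a number marks a chemostat. Intervals and counting errors cover counting only, and p-values measure the spread between the replicates. The genes, lists and rules were chosen with earlier results of these data known. Named were the *FLO* family, *FLO8*, *ACT1*, the 5 genes most like each described gene, and genes with neighbouring numbers.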

Additional observations from a re-analysis of the deposited data

How the results depend on the processing

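Under the alternatives, 455 values moved by less than the spread between replicates (for counts, by at most 1.5 times) and 53 by more. Of 252 log2 values of PP7435_Chr1-2104 and PP7435_Chr4-0629, 20 changed sign, 6 of them with 1 library left out. Neither gene was called in any comparison, but both were chosen for keeping their level, so this is no test of their steadiness. The log2 fold changes of PP7435_Chr1-2104 and PP7435_Chr4-0629 stayed within 0.611 of 0 throughout. The file used mattered most. In the TPM of the kallisto files, the levels of PP7435_Chr1-2104 were 78.7, 102.9 and 86.2 in wild type S1, S3 and S5 and 94.2 and 90.7 in *flo8Δ* S1 and S3, and those of PP7435_Chr4-0629 were 524, 489, 358, 434 and 510.1 in the same order. From the estimated counts, the log2 fold changes of PP7435_Chr1-2104 were -0.23 and 0.32 between the strains at S1 and S3, 0.077 in S5 against S1 and -0.25 in S5 against S3. Those of PP7435_Chr4-0629 were 0.26 and 0.059 between the strains, -0.44 and -0.45 in S5 against S1 and S3, and 0.24 in *flo8Δ* S3 against S1. This test called 473 genes between the strains at S3 (224 by limma on normalized counts), 128 in wild type S3 against S1 (76), 285 in S5 against S3 (127) and 67 in *flo8Δ* S3 against S1 (29). From the reads less the estimated counts, PP7435_Chr4-0629 had -0.54 between the strains at S1 and -0.28 in *flo8Δ* S3 against S1, for which 44 genes were called.

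Relative to *ACT1*, PP7435_Chr4-0629 had -0.34 between the strains at S3, and in *flo8Δ* S3 against S1 it had 0.15 and PP7435_Chr1-2104 0.067. On log2(TPM + 1), PP7435_Chr4-0629 had -0.051 in the latter comparison and 0.029 for the difference between the strains' responses. The median of all genes shifted to -0.17 between the strains at S3 and 0.31 in *flo8Δ* S3 against S1 relative to *ACT1*, and to -0.12 in S5 against S1 and 0.11 in *flo8Δ* S3 against S1 by TPM. Higher and lower calls relative to *ACT1* numbered 157 and 45 between the strains at S3 (202 and 22 by normalized counts), 86 and 10 in wild type S3 against S1 (59 and 17) and 45 and 2 in *flo8Δ* S3 against S1 (17 and 12). By TPM the last were 24 and 9, and in S5 against S1 they were 4 and 25 (5 and 16). With 1 library left out, 46 to 140 genes were called in wild type S3 against S1 and 0 to 45 in S5 against S1. With the replicate number as a block, 6 other *FLO* genes were called in S5 against S1 and 2 in S5 against S3, in place of 3 and 1, and both counts were the same with all 15 libraries in 1 fit. The block changed no other count of calls by over 1.5 times. The order of the group levels by normalized counts over 15 libraries was an alternative chosen after seeing the data. Where a cause is not given, it was not tested. Depth limits the estimated counts of PP7435_Chr1-2104 (5 to 46 a library) most.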
